A study of Mus musculus with 40 samples.

Results

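Small RNA pulled down from liver was compared with small RNA pulled down from muscle, in 10 libraries of a series of 40. The 10 were taken by their labels: all 5 libraries of liver and all 5 of muscle that the labels type as IP, the fraction held by streptavidin. The series holds 8 groups of 5 libraries, an IP and an unselected input for each of 4 tissues of male mice. The question the design puts to the IPs is which miRNAs labelled in brown fat are found in other tissues. The mice were bred by crossing UPRT mice, which carry Tg(CAG-GFP,-Uprt)985Cdoe/J, with UCP1;cre mice, which carry Tg(Ucp1-cre)1Evdr/J, and are called UCP1;UPRT mice in the design. The Ucp1 promoter, that of the uncoupling protein gene of brown fat, drives the Cre recombinase.

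Every mouse was 8 to 12 weeks old, ate standard chow and received 4-thiouracil (4TU) into the peritoneum at 50 mg/kg, 4 times, 48 h apart. Both groups share this treatment, and the labels give neither the genotype of single mice nor a group without 4TU or without Cre. The RNA of each tissue was biotinylated where it contained 4TU and collected on streptavidin. The 10 libraries come from 8 mice. Mouse 3 gave liver IP 1 and muscle IP 3, mouse 9 gave liver IP 4 and muscle IP 5, and the other mice gave 1 library each. All 10 were sequenced in pool 2, so the pool does not separate the tissues here. The inputs were all in pool 1, so pool and IP or input status coincide and cannot be told apart.

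A miRNA is a short RNA cut from a hairpin precursor and loaded into an Argonaute protein, where it guides the repression of messenger RNAs. The seed, bases 2 to 8 from the 5′ end, sets most of its pairing with targets, and miRNAs with the same seed form a family. Each hairpin can give a 5p and a 3p arm, of which one is usually kept as the guide. The enzyme UPRT joins 4TU to ribose phosphate, and the product can enter new RNA as a thiolated uridine. Liver and skeletal muscle each hold miRNAs that few other tissues make in quantity: miR-122 in hepatocytes, and miR-1, miR-133 and miR-206 in striated muscle.

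The total of expected counts was 110195, 187439, 444006, 11928 and 207688 in liver IP 1 to 5, and 921297, 724954, 347232, 349303 and 109978 in muscle IP 1 to 5. Levels are given as CPM, the counts scaled to a common total of miRNA reads. Liver IP 4 and muscle IP 5 were the shallowest library of their tissue and both come from mouse 9. Of the 103 miRNAs tested, 56 had their highest liver IP level in liver IP 4 and 87 had their highest muscle IP level in muscle IP 5. Several values that stand out in these libraries are also given without them.

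The mature sequences of the miRNAs that the results turn on follow, from RefSeq on GRCm38.p6 (mm10), with the seed in capitals. RefSeq held 85 of the 103 tested miRNAs. The first group are those much higher in the liver IP, with miR-152-3p, which shares the seed of miR-148a-3p:
miR-192-5p: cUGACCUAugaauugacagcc
miR-194-5p: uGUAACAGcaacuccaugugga
miR-148a-3p: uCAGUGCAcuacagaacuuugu
miR-152-3p: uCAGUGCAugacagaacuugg
miR-101b-3p: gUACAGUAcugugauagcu
miR-21a-5p: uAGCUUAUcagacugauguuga

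The second group shows a muscle miRNA and the miRNAs of the Hox gene clusters, among which relatives with 1 seed went opposite ways:
miR-206-3p: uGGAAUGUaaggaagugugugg
miR-196a-5p: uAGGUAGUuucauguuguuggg
miR-196b-5p: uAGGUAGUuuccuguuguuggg
miR-10a-5p: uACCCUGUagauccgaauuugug
miR-10b-5p: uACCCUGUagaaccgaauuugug

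The third group holds let-7 guides that were not called between the IPs or were lower in the liver IP. It also holds both arms of miR-30a, whose balance differed between the IPs:
let-7f-5p: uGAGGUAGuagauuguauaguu
let-7i-5p: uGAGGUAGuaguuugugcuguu
miR-30a-5p: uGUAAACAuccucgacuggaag
miR-30a-3p: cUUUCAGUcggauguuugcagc

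miR-192-5p lies at chr19:6264857-6264877 on the plus strand, and a copy of miR-194-5p lies beside it at chr19:6264658-6264679, neither inside another annotated gene. The second copy of miR-194-5p, at chr1:185313325-185313346, is in an intron of the antisense gene 2010103J01Rik. miR-148a-3p (chr6:51269829-51269850, minus strand) lies in no other gene, miR-101b-3p (chr19:29135338-29135356) in an intron of Rcl1, and miR-21a-5p (chr11:86584120-86584141, minus strand) overlaps an exon of a Vmp1 transcript. miR-206-3p (chr1:20679055-20679076) overlaps an exon of the long non-coding gene Gm28653. The arms of miR-30a lie at chr1:23272274-23272295 (5p) and chr1:23272315-23272336 (3p), in no other gene. Host genes are those of GENCODE on the same build.

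One miRNA made up most of each library. In the liver IP, miR-122-5p took 76.8, 82.0, 76.0, 72.0 and 75.0% of the counts (mean 76.3% ± 3.64, SD, n = 5). In the muscle IP, miR-1a-3p and miR-1b-5p, 2 entries that share their reads, took 77.3, 76.2, 78.8, 77.8 and 60.4% (74.1% ± 7.71, SD, n = 5). The let-7 guides with miR-98-5p were the second component of every IP library, at 15.1 to 20.6% in liver and 14.9 to 26.4% in muscle. All other miRNAs together held 2.70 to 10.8% of the liver IP and 4.47 to 13.1% of the muscle IP, and in liver IP 4 this remainder was 1289 counts. In the inputs of the same tissues miR-122-5p held 37.2 to 43.3% in liver, and miR-1a-3p with miR-1b-5p held 79.7 to 84.5% in muscle.

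**Figure D1:**
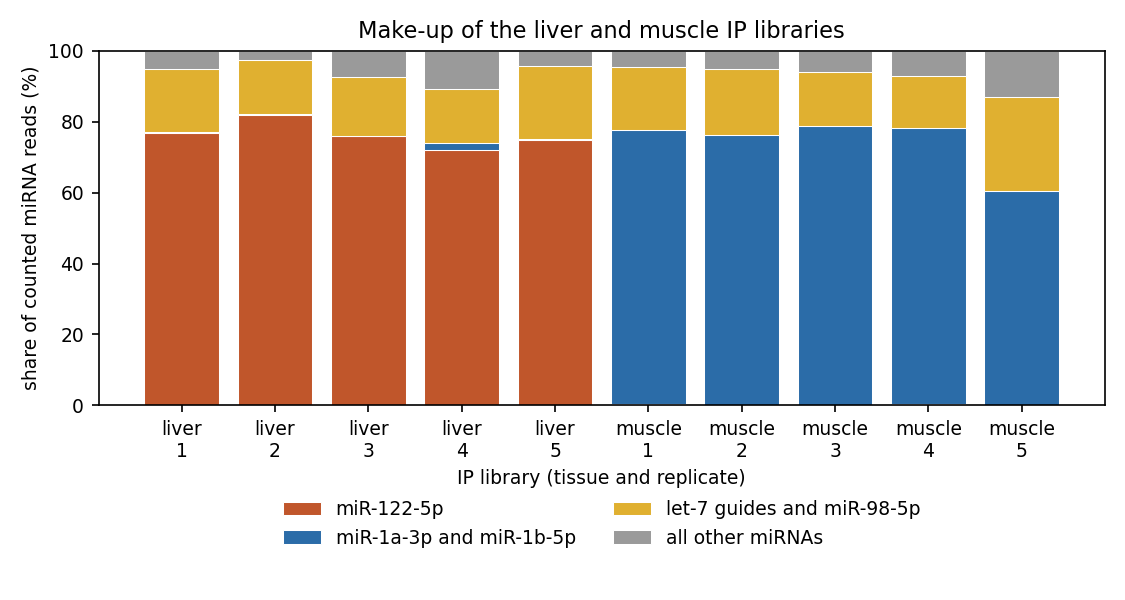
Share of counted miRNA reads (%, vertical axis) in each of the 10 IP libraries (horizontal axis), split into miR-122-5p, miR-1a-3p with miR-1b-5p, the let-7 guides with miR-98-5p and all other miRNAs. miR-122-5p takes 72.0 to 82.0% of the 5 liver libraries, and muscle IP 5 has the smallest share of miR-1a-3p with miR-1b-5p, 60.4%.

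Of 1894 miRNA entries, 737 had a value above 0 and 472 at least 1 rounded count in these libraries, and 103 passed the filter on low counts. With edgeR's quasi-likelihood test and a Benjamini-Hochberg adjusted p under 0.05, 60 of the 103 differed between the IPs (58.3%), 32 higher in liver (31.1%) and 28 higher in muscle (27.2%). Without liver IP 4, the calls were 36 higher and 36 lower of 119 tested, without muscle IP 5 37 and 33 of 116, and without both 34 and 31 of 109. The CPM ranges of the groups were apart for 34 miRNAs (33.0%), 12 above in liver (11.7%) and 22 above in muscle (21.4%). The filter asks for 36.05 CPM in at least 5 libraries. A total of 8 miRNAs passed through muscle libraries alone and 4 through liver libraries alone, so these 12 had to differ, and all were called. Of the 70 that reached the level in at least 3 libraries of each tissue, 33 were called (47.1%). In bulk tissue, fewer cells of a type and less RNA per cell cannot be told apart, and since each library is a set of shares, the level of any miRNA also moves with the share that miR-122-5p or miR-1a-3p takes.

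The median log2 fold change over the 103 was 0.23 with TMM scaling, -0.04 with the RLE scaling of the same tool and 0.11 with total counts. Fold changes near 0 should be read against this shift. Of the 60 calls, 39 held under each of 25 alternatives that tested the miRNA, 17 higher and 22 lower in liver, and none of the 60 changed sign under any of them. Among the calls, 8 were higher in liver by at least 4 on the log2 scale and 15 lower by as much. The 8 calls that passed the filter through muscle libraries alone are all among the 15, and the 4 through liver libraries alone are among the 8 higher. The filter fixed their direction, and all of them are also among the 39 calls that held. The 15 also count the miR-486 entries and both miR-1a-3p and miR-1b-5p, which share reads.

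The liver list had 14 names, of which 12 had a count in the IPs and 5 were tested. All 5 were higher in the liver IP, beside 31.1% of all 103 tested. For miR-192-5p, miR-194-5p and miR-194-2-3p, which passed the filter through liver libraries alone, that direction was fixed by the filter, and it was free for miR-122-5p and miR-148a-3p. miR-122-5p, the main hepatocyte miRNA, was 768300, 819600, 759900, 719600 and 749500 CPM in the liver IPs against 3981, 316, 399, 3107 and 680 CPM in the muscle IPs, a log2 difference of 8.59 with SE 1.12 (adjusted p = 9.69e-08). The groups were far apart, and within muscle libraries 1 and 4 stood above the other 3. Those libraries come from mice 1 and 8, whose muscle inputs were also the highest, at 494 and 198 CPM against 41.2 to 61.7 CPM in the other 3.

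miR-192-5p and miR-194-5p, made from neighbouring hairpins and abundant in liver and gut, followed. miR-192-5p was 5504, 2309, 6736, 11030 and 5718 CPM in the liver IPs and 16.3, 11.0, 5.76, 10.02 and 18.2 CPM in the muscle IPs, a log2 fold change of 8.55 (SE 0.53). miR-194-5p was 365, 56.0, 435, 419 and 307 CPM in the liver IPs. It had 3.33 expected counts in all muscle IPs against 312.8 in all liver IPs, a ratio of 203 on the TMM scale (95% binomial interval 72.3 to 887, counting error only). miR-194-2-3p, the other arm of the chr19 hairpin, had 126.4 expected counts in the liver IPs and 2.5 in the muscle IPs, a ratio of 109 (33.4 to 665).

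miR-148a-3p, an abundant hepatocyte miRNA, was 4844, 1908, 10020, 10840 and 4300 CPM in the liver IPs and 98.6, 52.4, 63.9, 137 and 182 CPM in the muscle IPs (log2 fold change 5.77, SE 0.48). Its ranges were apart. miR-152-3p, with the same seed, was 1.35 higher on the log2 scale (SE 0.39, adjusted p = 0.00364), with ranges of 168 to 427 CPM in liver and 87.9 to 250.1 CPM in muscle that overlap. Counted from the 5′ end, the paralogs differ at C9U, U10G and U20G from miR-148a-3p to miR-152-3p.

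The striated muscle list had 15 names, of which 9 had a count in the IPs and 5 were tested. All 5 were lower in the liver IP, beside 27.2% of all 103 tested. Of the 5, miR-133a-3p passed the filter through muscle libraries alone and had to be lower. miR-1a-3p, which restrains growth of cardiac and skeletal muscle cells, was 579900, 571800, 591300, 583500 and 453300 CPM in the muscle IPs. In the liver IPs it was 1274, 862, 430, 15720 and 602 CPM (log2 fold change -7.99, SE 1.10, and -9.65 without liver IP 4). Liver IP 4 stood far above the other liver libraries in CPM, but its 188 counts lay within the 125 to 191 counts of the other 4, whose totals are much larger.

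miR-206-3p, specific to skeletal muscle, showed the same. It was 17250, 21520, 21430, 13060 and 19470 CPM in the muscle IPs and 60.5, 28.01, 20.1, 559 and 16.9 CPM in the liver IPs (log2 fold change -8.60, SE 0.80, and -9.55 without liver IP 4), and its liver counts were 7, 5, 9, 7 and 4. In the liver inputs the highest level of miR-1a-3p, 1110 CPM, was also that of mouse 9, against 621 to 890 CPM in the others. The part of depth or of muscle RNA in the level of liver IP 4 was not tested.

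miR-133a-3p, co-transcribed with miR-1 in muscle, was 1355, 2544, 4127, 7108 and 13070 CPM in the muscle IPs. In the liver IPs it was 4.54, 5.34, 1.13, 41.9 and 0 CPM, 2.5 expected counts in all against 8446 in muscle, a ratio of 1564 (488 to 9412). The entries of miR-486, which is abundant in muscle and in red blood cells, share their reads. miR-486b-5p was 76.1, 38.9, 16.5, 283 and 43.9 CPM in the liver IPs and 1630, 1754, 2239, 3224 and 8195 CPM in the muscle IPs, a log2 fold change of -5.87 (SE 0.51). Members at 0 in all 10 libraries included miR-208a-3p, miR-208b-3p and miR-206-5p.

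**Figure D2:**
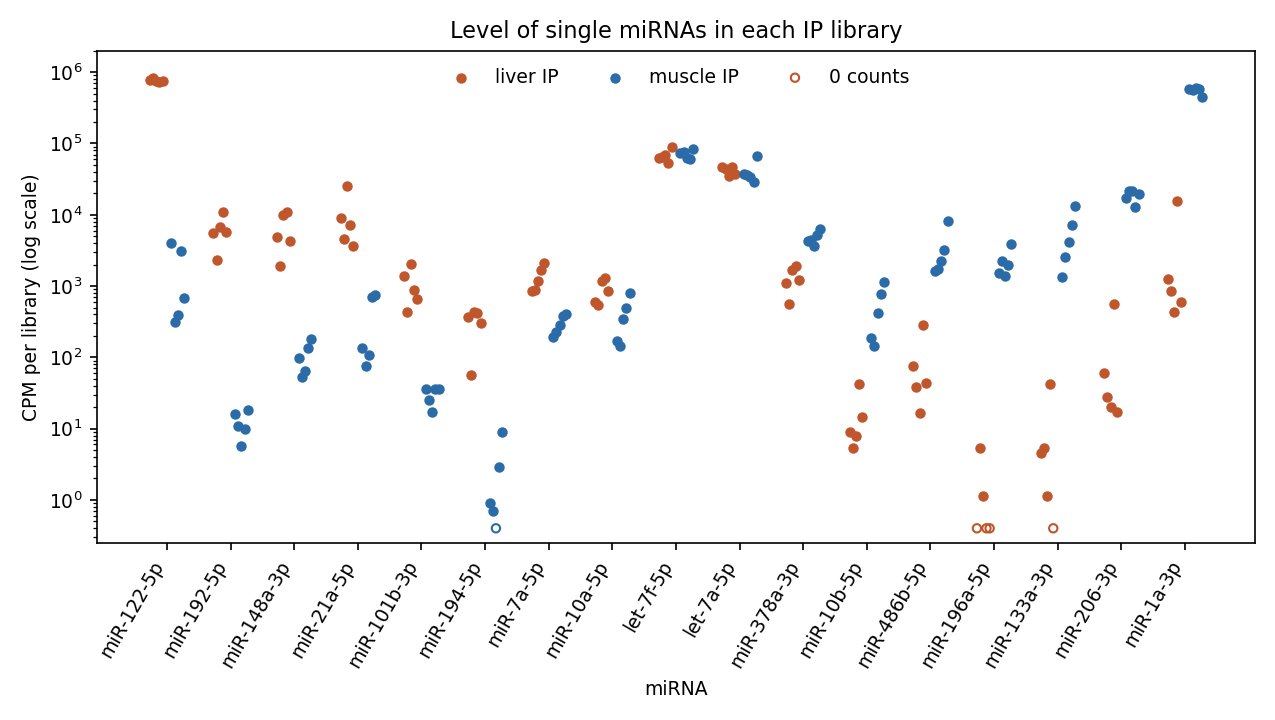
CPM of 17 miRNAs (horizontal axis) in each library on a log scale (vertical axis), with liver IP 1 to 5 and muscle IP 1 to 5 from left to right in each pair and open circles for 0. The 5 liver points lie far above the 5 muscle points for miR-122-5p, miR-192-5p and miR-148a-3p, far below them for miR-206-3p and miR-1a-3p, and amid them for let-7f-5p and let-7a-5p.

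The Hox list holds miRNAs encoded inside the Hox gene clusters, whose genes pattern the body along its axis. Of 7 names 5 were tested, and 4 were lower and 1 higher in the liver IP, but the 4 lower ones passed the filter through muscle libraries alone, so their direction was fixed by it and the count is a description of levels. miR-196a-5p is encoded between Hox genes at chr11:96265187-96265208 and in an intron of Hoxc5 at chr15:102973365-102973386. It was 1509, 2247, 1389, 1970 and 3853 CPM in the muscle IPs. The liver IPs held 1.5 expected counts in all against 4614, a ratio of 1424 (333 to 19810). miR-196b-5p (chr6:52230129-52230150, minus strand, in an exon of a Hoxa9 transcript) was at 87.4, 139, 83.9, 161 and 209 CPM in the muscle IPs and at 0 in all 5 liver IPs, so it was at least 44.5-fold higher in muscle, with 3 counts over the liver group as the floor. From miR-196a-5p to miR-196b-5p the only difference is A12C, outside the seed.

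The miR-10 pair went opposite ways. miR-10b-5p (chr2:74726074-74726096, in introns of Hoxd3 and Hoxd4) was 189, 143, 425, 763 and 1138 CPM in the muscle IPs and 9.08, 5.34, 7.88, 41.9 and 14.4 CPM in the liver IPs, a log2 fold change of -5.44 (SE 0.56). miR-10a-5p (chr11:96317186-96317208, in no other annotated gene) was 603, 540, 1189, 1299 and 846 CPM in the liver IPs and 170, 143, 342, 485 and 812 CPM in the muscle IPs, a log2 difference of 1.33 with SE 0.36 (adjusted p = 0.0022). The ranges of miR-10b-5p were apart and those of miR-10a-5p overlapped, with muscle IP 5 inside the liver range. These paralogs share their seed and differ by U12A alone. The call of miR-10a-5p was lost in 4 of 25 alternatives, among them total-count scaling (log2 fold change 1.20). In the inputs both differed the same way, by -6.31 and 1.43 on the log2 scale.

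miR-615-3p, of the Hoxc cluster, had 188.2 expected counts in the muscle IPs and 1.0 in the liver IPs, a ratio of 87.1 (15.4 to 3460).

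Other miRNAs high in the liver IP were miR-21a-5p, induced in growing and stressed cells, and miR-101b-3p, a repressor of the histone methyltransferase Ezh2. miR-21a-5p was 9107, 4522, 25130, 7178 and 3605 CPM in the liver IPs and 134, 74.5, 108, 694 and 755 CPM in the muscle IPs (log2 fold change 5.09, SE 0.61). The ranges were apart, with liver IP 3 highest and muscle IP 4 and 5 above the other muscle libraries. miR-101b-3p was 1371, 428, 2029, 880 and 666 CPM in the liver IPs against 36.2, 24.8, 17.3, 35.8 and 36.4 CPM in the muscle IPs (4.97, SE 0.50).

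miR-7a-5p, best known from neurons and pancreatic islets, was 839, 876, 1169, 1659 and 2109 CPM in the liver IPs and 192, 229, 288, 378 and 405 CPM in the muscle IPs (2.05, SE 0.38), and the ranges were apart. miR-7b-5p, with the same seed, was 2.46 higher (SE 0.60), with liver IP 4 at 545 CPM and the other liver IPs at 13.8 to 96.3 CPM, and 1.94 higher without liver IP 4. Entries that are little studied stood in the same range: miR-6236 was 3.52 higher (SE 0.75), but it was 3912 CPM in liver IP 4 and 34.8 to 292 CPM in the others, and without that library it was 1.78 higher and still called. miR-3963 was 3.04 higher (SE 0.47), at 98.4 to 361 CPM in the liver IPs and 6.85 to 74.9 CPM in the muscle IPs.

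Outside the muscle and Hox lists, miR-181a-2-3p, miR-149-5p, miR-181b-5p, miR-378c and miR-128-3p were among those lower in the liver IP. Of these, miR-181a-2-3p, miR-149-5p and miR-181b-5p passed the filter through muscle libraries alone, so their direction was fixed by it. miR-181a-2-3p had 236.9 expected counts in the muscle IPs and 2.0 in the liver IPs, a ratio of 54.8 (15.01 to 456). miR-149-5p was 93.9, 90.4, 198, 380 and 790 CPM in the muscle IPs and 0 to 24.1 CPM in the liver IPs (-4.21, SE 0.59). Muscle IP 5 was the highest and muscle IP 1 and 2 the lowest for both.

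Whether miRNAs known from brown fat were spread evenly was looked at with 28 names, of which 24 had a count in the IPs and 9 were tested. A total of 2 were higher in liver, 3 lower and 4 not called, where 31.1% of all 103 were higher and 27.2% lower. The median of the 9 was 0.14, near the 0.23 over all 103. With RLE 1 was higher and 4 lower, and without liver IP 4 3 were higher and 5 lower of 12. miR-378a-3p, encoded with the coactivator gene Ppargc1b and made in fat and muscle, was 1106, 563, 1699, 1928 and 1202 CPM in the liver IPs and 4261, 4457, 3667, 5269 and 6293 CPM in the muscle IPs (-2.10, SE 0.39). The ranges were apart. miR-92a-3p, of the miR-17 cluster and its paralog, was 1261, 824, 1304, 4094 and 1019 CPM in the liver IPs and 138, 139, 324, 575 and 975.4 CPM in the muscle IPs (2.01, SE 0.39, and 1.52 without liver IP 4).

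Brown fat miRNAs of the miR-193b and miR-365 cluster were too low to test: miR-193b-3p had 5 counts in the muscle IPs and 0 in the liver IPs, and miR-365-3p 23 and 11. The other arms had more counts in muscle, miR-193b-5p 74 against 0 and miR-365-2-5p 103 against 7, also untested between the IPs. Other untested members of the list had more counts in the liver IPs than in the muscle IPs. Among them were miR-203-3p (101 against 8), miR-455-3p (79 against 5), miR-183-5p (31 against 6) and miR-182-5p (23 against 0). The summed level of the list was 0.271 to 1.01% in the liver IPs and 0.695 to 1.62% in the muscle IPs. miR-196a-5p, described above, stands on this list too, and it is 1 of the 3 lower members, with its direction fixed by the filter.

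Markers of other cell types were at low levels. Of the red blood cell list, 2 of 9 names were tested and both were lower in the liver IP, beside 27.2% of all 103 tested. Both are miR-486 entries that share their reads, so they are not separate measurements. miR-451a, the defining red cell miRNA, had 0 counts in the liver IPs and 1 in the muscle IPs. The summed level of this list, which includes both miR-486 entries, was 0.00347 to 0.0545% in the liver IPs and 0.294 to 1.48% in the muscle IPs. Of 10 leukocyte names 1 was tested: miR-146a-5p, a brake on Toll-like receptor signals, was 155, 155, 136, 796 and 256 CPM in the liver IPs and 14.4, 36.4, 50.4, 57.7 and 120 CPM in the muscle IPs (2.23, SE 0.45). Another leukocyte miRNA, miR-150-5p, too low to test, had 4 counts in the liver IPs (mean 4.25 CPM) and 82 in the muscle IPs (60.1 CPM). The defining miR-142a-3p and miR-223-3p were at 0 counts in the liver IPs and at 0 and 1 in the muscle IPs, and the list summed to 0.0182 to 0.0895% in liver and 0.00443 to 0.0347% in muscle.

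On the endothelial list miR-221-3p and miR-222-3p, a pair with 1 seed encoded side by side on the X chromosome, were higher in the liver IP by 1.91 (SE 0.50) and 1.98 (SE 0.42). miR-126a-3p, the defining endothelial miRNA, was not called (0.59, 95% interval -0.25 to 1.42), and its entry shares reads with miR-126b-5p. The endothelial list summed to 0.0297 to 0.112% in liver and 0.0187 to 0.118% in muscle. The parts of these cell types in the results were not tested.

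Of 30 brain names 4 were tested, 2 higher in liver (miR-7a-5p and miR-7b-5p) and 2 lower (miR-128-3p and miR-149-5p). The direction of miR-149-5p was fixed by the filter, and of all 103 tested 31.1% were higher and 27.2% lower. Chosen after its values were seen, miR-9-5p, a neuronal miRNA too low to test, was 13.6, 2.67, 1.13, 83.8 and 329 CPM in the liver IPs. Liver IP 5 was also the highest liver library for miR-127-3p, an imprinted miRNA antisense to Rtl1, at 632 CPM against 33.8 to 335 CPM in the other 4. miR-127-3p was not called with all libraries (0.32, adjusted p = 0.625), and without liver IP 5 it was lower in liver, with a log2 fold change of -1.21 that reached the threshold.

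The let-7 family, guides that hold back growth genes such as Hmga2 and Ras and rise as tissues mature, had mostly uncalled members. Of 23 names 14 were tested, 0 were higher in liver, 2 lower and 12 not called, with a median of -0.11. Over all 103 tested, 31.1% were higher and 27.2% lower. let-7f-5p, the most abundant, was 63180, 65700, 68260, 53080 and 90620 CPM in the liver IPs and 72430, 76730, 63190, 59700 and 84790 CPM in the muscle IPs. Its log2 fold change was -0.21 (95% interval -1.38 to 0.95). let-7a-5p had 0.02 (-1.03 to 1.07), let-7c-5p -0.33 (-1.27 to 0.60), let-7g-5p 0.71 (-0.27 to 1.70) and let-7b-5p 0.00 (-0.81 to 0.82).

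The 2 members lower in liver were let-7i-5p and let-7d-5p. let-7i-5p was 5496, 4391, 6457, 5785 and 12480 CPM in the liver IPs and 21830, 21100, 13480, 16360 and 22900 CPM in the muscle IPs (-1.68, SE 0.49, adjusted p = 0.00377), with ranges that do not overlap. let-7d-5p was -1.06 (SE 0.44, adjusted p = 0.0386), also with ranges apart. With RLE 4 of the 14 were lower, without liver IP 4 3 and without muscle IP 5 4, and 0 were higher in each case. let-7e-5p (-0.87) was not called, but it was called lower in 17 of 25 alternatives, with values of -1.50 to -0.85 over all 25.

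Among other families, the miR-30 family, whose 5p guides share the seed GUAAACA, had 5 tested members. Of them 2 were higher in liver, 0 lower and 3 not called, beside 31.1% higher and 27.2% lower of all 103. miR-30a-5p was 1060, 267, 1693, 2138 and 537 CPM in the liver IPs and 227, 147, 292, 617 and 643 CPM in the muscle IPs (1.48, SE 0.42). Its ranges overlapped, and without liver IP 3 the difference was 0.93 and not called. miR-30c-5p was 0.97 higher (SE 0.40, adjusted p = 0.0407), a call lost in 17 of 25 alternatives. miR-30d-5p (0.64) was not called, and the 3p arms miR-30a-3p (-0.62) and miR-30c-2-3p (-0.92) were not called either. The 5p estimates were positive and the 3p estimates negative. The 2 higher calls were on 5p arms, and no 3p arm was called. A division by arm over the family as a whole was not tested. With RLE 1 member was higher, miR-30a-5p at 1.18, and 2 were lower, miR-30a-3p at -0.88 and miR-30c-2-3p at -1.16.

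The 5 tested members of the miR-125 and miR-99/100 families gave 1 call, where 58.3% of all 103 tested were called. miR-100-5p was 289, 296, 443, 377 and 262 CPM in the liver IPs and 366, 380, 1023, 2144 and 2983 CPM in the muscle IPs (-1.75, SE 0.41), with overlapping ranges. Within this family miR-125a-5p was 0.43 (95% interval -0.38 to 1.25) and miR-125b-5p -0.56 (-1.33 to 0.21).

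Of the entries of miR-320 and miR-484, which are made without the nuclear enzyme Drosha, and of miR-423 and miR-676, 3 of 5 tested were higher in liver. The share higher over all 103 tested was 31.1%, and 58.3% were called. miR-423-5p was 1905, 1388, 863, 8467 and 1321 CPM in the liver IPs and 375, 277, 643, 354 and 915 CPM in the muscle IPs (2.16, SE 0.43), again highest in liver IP 4, and 1.45 without that library. The call was lost when all 4 IP groups shared the fit (1.01). Without liver IP 4 the list still had 3 higher, and 1 was then lower.

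The imprinted Dlk1-Dio3 cluster encodes a long run of miRNAs from the maternal chromosome 12. Of 52 names 30 had a count and 4 were tested, with 3 lower in liver and 1 not called, beside 27.2% lower of all 103. Of the 3, miR-382-5p reached the filter's level in 1 liver library and miR-379-5p in 2, each beside 5 muscle libraries. They passed the filter mainly through the tissue where they are high, so the count is a description of levels. The third, miR-541-5p, lost its call in 5 of 25 alternatives. miR-379-5p was 31.8, 24.0, 37.4, 0 and 31.3 CPM in the liver IPs and 128, 167, 146, 103 and 90.9 CPM in the muscle IPs (-2.27, SE 0.52), with ranges apart. miR-382-5p was -2.50 (SE 0.53), with liver IP 4 at 168 CPM inside the muscle range of 123 to 172 CPM. The only tested member of the miR-29 family, miR-29a-3p, was 1.11 higher in liver (SE 0.44, adjusted p = 0.0312), a call lost in 18 of 25 alternatives. None of the 6 names of the miR-15 and miR-16 family was tested, and 1 of them reached a rounded count in these libraries.

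**Figure D3:**
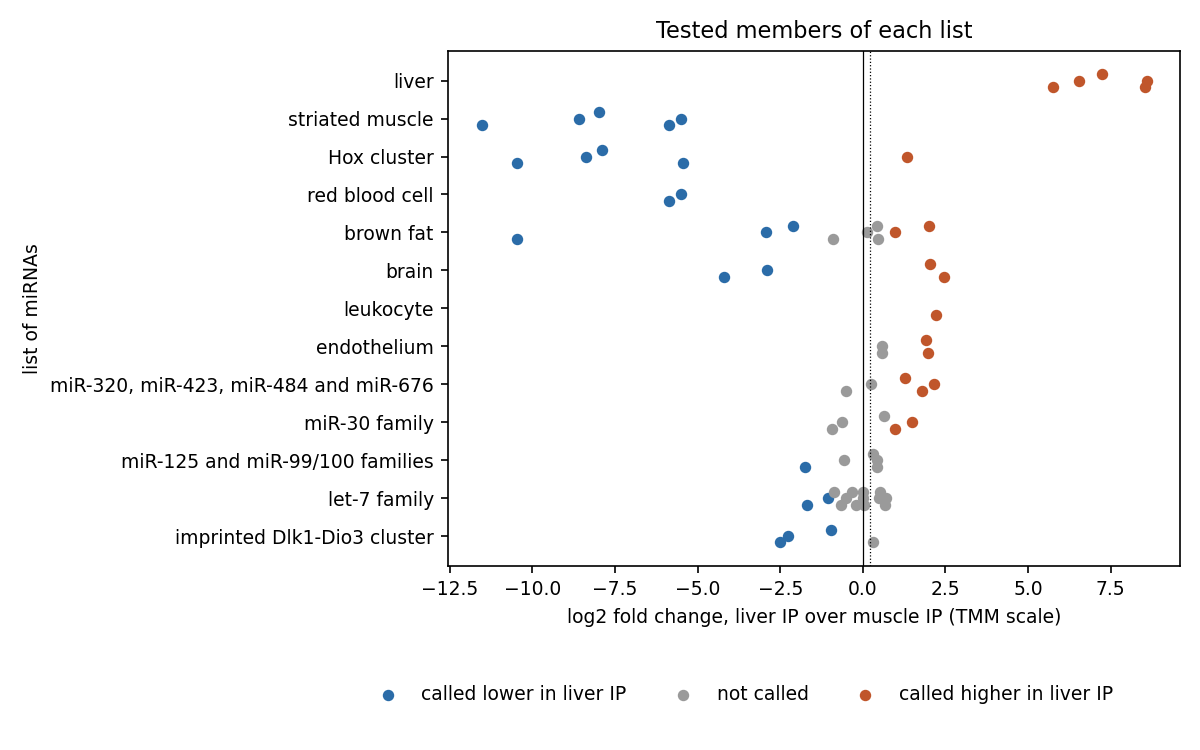
Log2 fold change of liver IP over muscle IP on the TMM scale (horizontal axis) for each tested member of 13 lists (vertical axis), where 1 point is 1 miRNA, colour gives the call and the dotted line is the median of all 103 tested, 0.23. All 5 liver points lie beyond 5 and all 5 striated muscle points below -5, while the let-7 points lie between -1.68 and 0.71.

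Grouped by seed, 16 seeds were shared by 2 or more tested miRNAs. Some of the 16 had more than 2 tested members, such as GAGGUAG with 9. In 9 pairs both members were called in the same direction, for example miR-181a-5p and miR-181b-5p, at -2.13 and -4.16, and miR-25-3p and miR-92a-3p, at 1.72 and 2.01. As single miRNAs, 31.1% of all 103 tested were called higher and 27.2% lower, and a share of agreeing pairs over all miRNAs was not computed. The filter fixed the direction of miR-181b-5p, miR-196a-5p, miR-196b-5p and miR-21c, which are all in such pairs. miR-181a-5p reached the filter's level in 5 muscle libraries and 1 liver library. The pair miR-199a-3p and miR-199b-3p shares its reads. The pair miR-10a-5p and miR-10b-5p was called in opposite directions. Since 4TU is taken up in place of uridine, base make-up was described too: the median share of U was 28.6% in the 29 miRNAs with a RefSeq sequence that were higher in liver, 31.8% in the 19 that were lower and 31.8% in the 37 not called.

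The same tissues were compared in the inputs to see how far the IP difference follows the total small RNA. In the inputs 250 of 318 miRNAs differed (78.6%), 142 higher in liver (44.7%) and 108 lower. With total-count scaling the split was 193 and 62. Over the 101 miRNAs tested in both, the log2 fold changes of the IP and of the input had a Pearson correlation of 0.965 and a Spearman correlation of 0.853, a description across miRNAs from IP and input libraries of the same mice. The direction was the same for 80. Of the 60 IP calls, 54 were called the same way in the input (90.0%), and these are 62.1% of the input calls tested in the IP. Of the 54, 33 were larger in the IP. miR-30c-5p alone was called in opposite directions, 0.97 in the IP and -0.54 in the input.

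**Figure D4:**
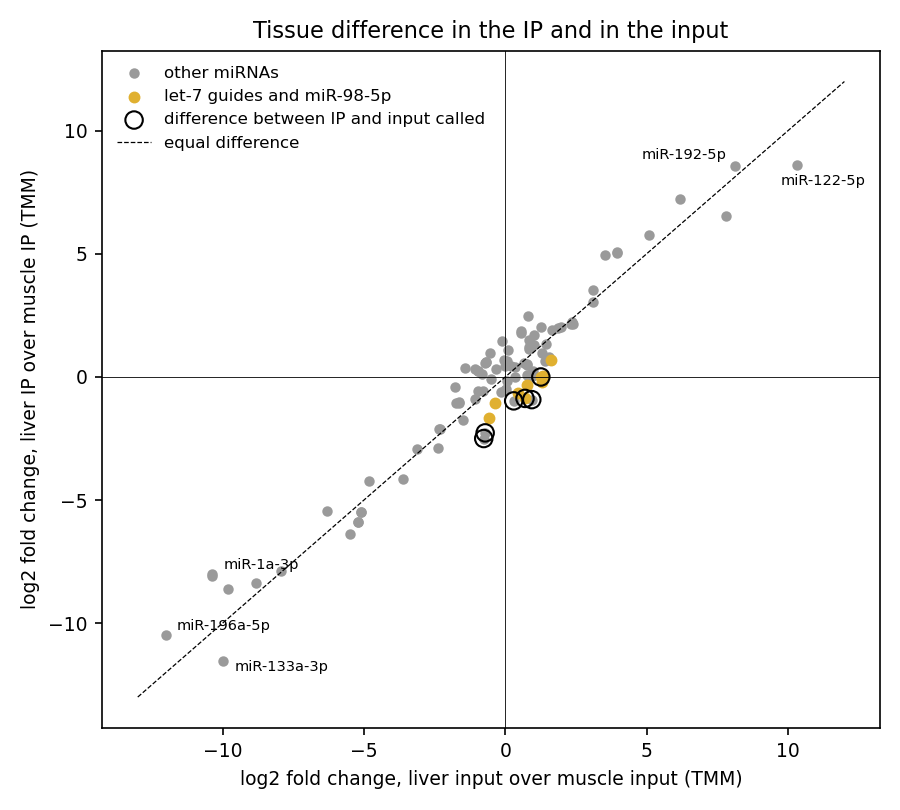
Log2 fold change of liver over muscle in the IP (vertical axis) against that in the input (horizontal axis) for 101 miRNAs on the TMM scale, where the dashed line marks equal differences and rings mark miRNAs whose IP and input differences were called different. The points follow the line (Pearson 0.965), and the let-7 guides lie below it.

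A test of the difference itself, the interaction of tissue and library type over 20 libraries, called 8 of 255 miRNAs (3.14%), 1 higher (0.392%) and 7 lower (2.75%), and 55 had an unadjusted p under 0.05, 14 of them higher and 41 lower. The 7 were let-7b-5p, let-7e-5p, miR-379-5p, miR-382-5p and miR-541-5p, with miR-30c-2-3p and miR-664-5p, which are of low level and named after their values were seen. This count is unstable: it was 0 without muscle IP 1, 0 without muscle IP 2, 0 with TMM after miR-122-5p and miR-1a-3p were left out, 28 with DESeq2 and 52 with limma-voom. Each IP library has an input from the same mouse and tissue, and with that pairing as a block 10 were called, 0 higher and 10 lower, of which 6 are among the 8. miR-30e-5p was then not called (1.86, adjusted p = 0.096). miR-382-5p was 21.5 ± 4.81 CPM in the liver input and 20.2 ± 4.20 CPM in the muscle input (SD, n = 5 each), but 52.7 ± 64.7 and 145 ± 22.2 CPM in the IPs, an interaction of -2.39 (SE 0.55, adjusted p = 0.00743). let-7e-5p was 149 ± 53.6 and 50.4 ± 6.67 CPM in the inputs and 844 ± 346 and 1640 ± 1050 CPM in the IPs (-2.29, SE 0.49, adjusted p = 0.00432). The only positive call, miR-30e-5p, was 1720 ± 388 and 1540 ± 437 CPM in the inputs and only 28.7 ± 15.4 and 14.4 ± 17.7 CPM in the IPs (2.03, SE 0.58, adjusted p = 0.043).

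The 9 let-7 guides with miR-98-5p all had a negative interaction, from -2.29 to -1.32 with a median of -1.69, beside a median of -0.18 over all 255, of which 56.9% were negative. In the inputs 7 of the 9 were higher in liver and 2 lower, and in the IPs 0 were higher and 2 lower. Adjusted p ran from 0.00432 to 0.15, and 2 of the 9 passed, or 5 of the 9 with the IP and input of a mouse paired. Their summed share was 4.32 to 6.09% in the liver inputs and 1.44 to 1.65% in the muscle inputs, ranges that are apart, and 15.1 to 20.6% and 14.9 to 26.4% in the IPs, ranges that overlap.

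The ratio of the arms of a hairpin needs no scaling between libraries. Of 22 hairpin entries with enough counts, 7 passed (31.8%) in an exact permutation test, two-sided, with Benjamini-Hochberg adjusted p of 0.0437 to 0.0499. The 22 and the 7 include miR-1b, miR-486a and miR-486b, which are no ratio of arms, as given below. The 22 also include miR-126a and miR-126b, not called, which share their reads. They give the same ratio with opposite sign, with means of -4.51 and 4.51 in the liver IPs. The adjusted p of the other calls rests on counting these entries, and the adjustment was not run without them. The smallest p that 5 against 5 allows is 0.007937, and with 4 against 5 it is 0.01587. The count was 0 without any 1 of 8 of the libraries, 4 without liver IP 3 and 5 without liver IP 5, and 0 with a pseudocount of 0.1. miR-30a gave the clearest one. Its log2 ratio of 5p to 3p counts was 1.61, -0.21, 1.57, 1.48 and 0.30 in the liver IPs (0.95 ± 0.85, SD, n = 5) and -0.79, -1.26, -0.93, -0.85 and -1.07 in the muscle IPs (-0.98 ± 0.19, exact permutation p = 0.007937).

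Every liver library stood above every muscle library, so the 5p arm led in 4 of 5 liver IPs and the 3p arm in all 5 muscle IPs. In the inputs the ratio was 4.67 in liver and 4.63 in muscle, and the 5p arm led in all 10. The mean level of miR-30a-5p was 18210 CPM in the liver inputs against the 267 to 2138 CPM of the liver IPs given above, and that of miR-30a-3p was 736 CPM in the liver inputs against 309 to 727 CPM in the liver IPs. The let-7b hairpin differed less, with a log2 ratio of 5.57 ± 0.37 in the liver IPs and 6.19 ± 0.18 in the muscle IPs (exact permutation p = 0.007937) and 5.96 and 6.04 in the inputs. The calls of miR-122 and miR-143 rest on a minor arm with 34 and 2, and with 4 and 7 counts. Those of miR-1b, miR-486a and miR-486b concern entries that share reads with another locus or strand, so they are no ratio of arms.

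**Figure D5:**
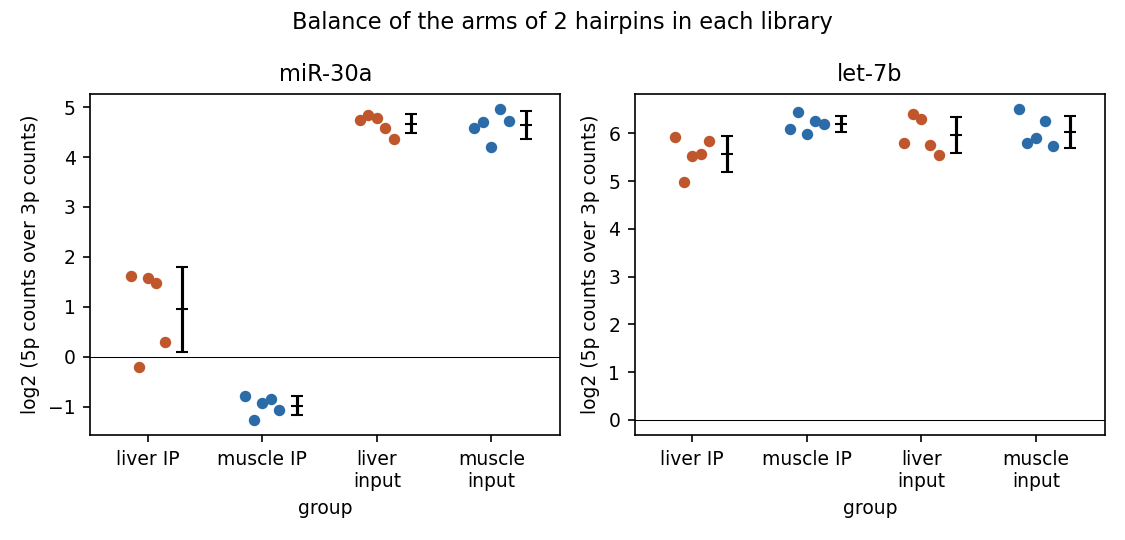
Log2 ratio of 5p to 3p counts (vertical axis) of the hairpins miR-30a and let-7b in each library of 4 groups (horizontal axis), where points are libraries and bars the mean ± SD of 5. For miR-30a the muscle IPs lie between -1.26 and -0.79, the liver IPs between -0.21 and 1.61 and all inputs above 4.

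Whether one tissue's IP held more kinds of miRNA was compared at equal depth. Rarefied to 11913 counts, a liver IP library held 98.9 ± 13.6 miRNAs and a muscle IP library 93.8 ± 18.7 (SD, n = 5 each; two-sided exact permutation test, p = 0.619). The difference of 5.08 was smaller than the spread. Liver IP 4 and muscle IP 5 had the highest number of their group, 117 and 122. Without muscle IP 5 the difference was 12.2 (exact permutation p = 0.19), and without liver IP 4 it was 0.555.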

How the data were processed

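The authors deposited 1 table of expected counts per mature miRNA entry and library, whose values need not be whole (18.9% of positive values were whole within 0.001). The submitters' processing notes name fastp, STAR, featureCounts and mm10; their versions and settings are not given in any source used here. Counts of 22 pairs of entries were correlated above 0.995, and these entries were taken to share reads and are uncertain. Library preparation used the NEBNext small RNA kit, per the labels' protocols. Without molecular identifiers, PCR reads are not independent molecules, and intervals and floors cover counting error only (95%, floor of 3 counts).

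Counts were rounded (totals moved by at most 0.127%), filtered with filterByExpr, scaled with TMM and tested with edgeR's quasi-likelihood test in its version 4.0.16, with no covariate, Benjamini-Hochberg adjusted p under 0.05 and two-sided, over all miRNAs that passed. limma 3.58.1 and DESeq2 1.42.0 in R 4.3.3, with other scalings, filters and libraries left out, were alternatives. Arm ratios used a pseudocount of 0.5, at least 10 counts over both arms and at least 4 libraries a group. The scripts were checked on simulated data.

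Samples were grouped by the tissue and type in the labels, and replicates come from separate mice within a group. Replicate numbers do not mark the same mouse in both tissues, and same-numbered libraries had correlated deviations in 1 of 5 pairs, so no block was used between tissues. The IP and input of 1 tissue and number do come from 1 mouse by the labels (correlation of deviations 0.067 to 0.258 over 10 pairs), and this pairing was an alternative for the interaction. Members and lists were chosen with earlier results of these data known. Named miRNAs are the 12 largest calls in each direction with a median of at least 100 CPM in the higher group, the 8 most abundant not called, up to 4 members of each list by level, the 8 largest interactions and the arm ratios called. Family relatives, interactions at a lower level and untested markers outside this rule were named after their values were seen. Total counts of the 10 libraries ran from 11928 to 921297, and miRNAs under 36.05 CPM in most libraries could not be tested.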

Additional observations from a re-analysis of the deposited data

Results flagged for a closer look

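Of 101 groups of 5 values checked, 30 had 1 library whose gap to the nearest other was more than 0.71 of the whole range. The limit is set for about 1 in 20 groups of independent, normally distributed values. The groups here share their libraries, and some share reads, so the 30 are a description and no test. In 16 of them liver IP 4 was the highest and in 11 muscle IP 5, both from mouse 9 and the shallowest of their tissue; the part of depth in these values was not tested.

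In liver IP 4, miR-1a-3p was 15720 CPM (next library 1274), miR-1b-5p 5240 (425), miR-206-3p 559 (60.5), miR-6236 3912 (292) and miR-423-5p 8467 (1905). In the same library miR-92a-3p was 4094 CPM (next 1304), miR-99b-5p 1132 (490.0), miR-146a-5p 796 (256) and miR-7b-5p 545 (96.3). miR-676-3p was 461 CPM there (next 135), miR-3963 361 (163) and miR-382-5p 168 (33.99), and miR-486a-3p and miR-486b-5p were 283 CPM and miR-486a-5p and miR-486b-3p 262 CPM (next 76.1 for all 4, which share reads).

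In muscle IP 5, let-7a-5p was 66180 CPM (next library 37080), let-7e-5p 3449 (1525), miR-125a-5p 8948 (2295) and miR-125b-5p 5988 (1837). miR-486a-3p and miR-486b-5p were 8195 CPM there (next 3224), and miR-486a-5p and miR-486b-3p 6565 (2549). miR-541-5p was 372 CPM (next 221), miR-676-3p 432 (171) and miR-6236 180 (53.4). The same library was the lowest for miR-1a-3p, 453300 CPM (next 571800), and miR-1b-5p, 151100 (190600). Liver IP 3 was the highest for miR-21a-5p, 25130 CPM (next 9107).

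The tested interaction called 6 miRNAs named above as differing between tissues by another amount in the IP than in the input. On the log2 scale the difference of differences was 2.03 for miR-30e-5p, -2.39 for miR-382-5p, -2.29 for let-7e-5p, -2.07 for miR-379-5p, -1.91 for let-7b-5p and -1.81 for miR-541-5p. As given in the report, the count of these calls depends on single libraries and on the scaling.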

How the results depend on the processing

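The 60 calls between the IPs became 118 of 472 tested with no filter on low counts (63 higher, 55 lower), and at a minimum mean of 10 CPM 46 were lower. Leaving out 1 library gave 55 to 72 calls, 25 to 37 higher and 25 to 36 lower. Among the miRNAs named by rule, miR-127-3p alone was called against the sign of its main estimate when 1 library was left out. It went from 0.32 to -1.21 without liver IP 5, and was at most 0.63 with any other 1 library left out (without liver IP 1). Estimates that were not called also changed sign, such as miR-125a-5p, from 0.43 to -0.02 without liver IP 4. Between the inputs, lower calls were 62 with total-count scaling and 200 with no filter, and a minimum 2-fold left 124 calls (60 higher, 64 lower). Leaving out 1 input library gave 198 to 262 calls, 111 to 150 higher and 87 to 116 lower. The 8 interaction calls became 5 higher and 4 lower with RLE, 21 (0 higher, 21 lower) with total counts, and 0 (0 higher, 0 lower) with TMM after the most abundant miRNA of each tissue was left out. They were 5 (2 higher, 3 lower) with no filter, 30 (0 higher, 30 lower) at a minimum mean of 10 CPM, 28 (19 higher) with DESeq2, 52 (22 higher, 30 lower) with limma-voom, and 0 (0 higher, 0 lower) at a minimum 2-fold. They were 14 (13 lower) with shared entries counted once, 14 (13 lower) without mouse 9 and 0 higher with TMMwsp. Leaving out 1 library gave 0 to 17, 0 to 5 higher and 0 to 16 lower. Arm ratio calls were 0 with a pseudocount of 0.1 and 0 to 5 with 1 library left out. The difference in miRNAs detected at equal depth was 0.555 to 12.2 with 1 library left out. TMMwsp, limma-voom with quality weights, the block by mouse and tissue and leaving out mouse 9 were chosen after seeing the data.

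The replicate number as a block gave 54 IP calls, 259 input calls and 13 interaction calls (12 lower), and a block for the IP and input of 1 mouse and tissue gave 10 interaction calls (0 higher). The numbers share no mouse between the tissues, and deviations of same-numbered libraries were correlated at -0.262 to 0.152. Depth limits liver IP 4 most, where 1 count is worth more than the filter's 36.05 CPM.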
